A study of Mus musculus with 15 samples.

Results

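The ADAM genes code for membrane proteins that carry a metalloprotease-like domain and a disintegrin domain. They were chosen here by symbol alone, as every row of the count table whose mouse gene symbol is Adam followed by a number and at most one letter. The rule found 34 genes among 41591 rows. By where each gene is known to act, 21 were placed in a testis and sperm type, 11 in a somatic type and 2 in an epididymal epithelium type.

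The libraries were made by RNA sequencing of whole epididymis from mice at 7 weeks of age, from a strain labelled Brown Swiss, with poly(A) RNA and a strand-keeping kit. There were 5 KO mice with the Plag1 gene knocked out, 5 HET mice with 1 Plag1 allele knocked out and 5 WT mice, 1 library each. Plag1 codes for a zinc finger transcription factor. The labels give neither the construct of the knockout allele nor a promoter or Cre driver, and no other agent or allele is named for any group. The tissue was teased apart and rinsed before extraction to take sperm out, so sperm and germ cell RNA here is what was left. Library totals were 25285461 to 41957608 counts in KO, 23617560 to 33804140 in HET and 20304440 to 27816792 in WT.

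An ADAM protease of the somatic type cuts the outer part of membrane proteins such as growth factor precursors and receptors, a step called shedding, and its active site holds zinc through a short motif with 3 histidines and a glutamate. Many ADAM genes are instead expressed in male germ cells, and in mice several of their proteins form complexes on the sperm surface that sperm need to pass from the uterus into the oviduct and to bind the egg coat. ADAM7 and ADAM28 are made by the epididymal epithelium itself, and ADAM7 is passed from there to the sperm surface.

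The stretch that codes for the zinc-binding motif shows how the members differ. The motif was present in 21 of the 34 members, in 12 of 21 of the testis and sperm type, in 8 of 11 of the somatic type, and in Adam28 but not in Adam7. Below are the 33 bases of that stretch in the members on which the results turn, or the 33 bases that align with it where the motif is missing, with the codons of the 3 histidines and the glutamate in capitals wherever they are kept. Here called means an adjusted p under 0.05 in KO against WT. The first group holds the most abundant somatic and epididymal members and the called members with the motif, and the second the called members without it.
Adam10: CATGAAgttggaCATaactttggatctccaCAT (GRCm38 chr9:70754296-70761585, plus strand, across the junction of exons 9 and 10)
Adam9: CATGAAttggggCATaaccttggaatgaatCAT (GRCm38 chr8:24990326-24990358, minus strand, exon 11)
Adam15: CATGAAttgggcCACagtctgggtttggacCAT (GRCm38 chr3:89344780-89344812, minus strand, exon 11)
Adam28: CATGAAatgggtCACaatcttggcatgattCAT (GRCm38 chr14:68633167-68633199, minus strand, exon 11)
Adam7: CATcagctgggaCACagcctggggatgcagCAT (GRCm38 chr14:68516614-68516646, minus strand, exon 11)
Adam12: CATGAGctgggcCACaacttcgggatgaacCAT (GRCm38 chr7:133961158-133961190, minus strand, exon 11)
Adam19: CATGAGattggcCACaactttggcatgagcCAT (GRCm38 chr11:46125050-46125082, plus strand, exon 11)
Adam23: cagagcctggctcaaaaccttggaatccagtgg (GRCm38 chr1:63547763-63547795, plus strand, exon 13)
Adam2: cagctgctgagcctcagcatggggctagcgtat (GRCm38 chr14:66053841-66053873, minus strand, exon 11)
Adam3: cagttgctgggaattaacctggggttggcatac (GRCm38 chr8:24707418-24707450, minus strand, exon 11)
Adam5: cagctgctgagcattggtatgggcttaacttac (GRCm38 chr8:24806449-24806481, minus strand, exon 11)
Adam32: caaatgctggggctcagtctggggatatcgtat (GRCm38 chr8:24901501-24901533, minus strand, exon 11)

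The 4 called sperm members and Adam23 kept none of the 3 histidine codons, and Adam12 and Adam19 kept all of them with the glutamate codon. Adam18 and Adam6b, which were not called, also kept none of the 3 histidine codons. Adam7 kept the 3 histidine codons and not the glutamate codon. The motif was read from the longest coding transcript of each gene in GENCODE M21, and its absence says only that these letters are not in that transcript.

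Gene structure and position also split the testis and sperm type. In 16 of its 21 members the transcript had 1 to 4 exons, while Adam2, Adam3, Adam5, Adam18 and Adam32 had at least 20. Somatic members had 16 to 30 exons. On chromosome 8 lay 13 of the 21 testis and sperm members, and 4 of the many-exon members, in the order Adam18, Adam3, Adam5 and Adam32, stood side by side on the minus strand from base 24602246 to base 24948918 (GRCm38). The somatic gene Adam9 was the next ADAM gene beyond Adam32, on the same strand.

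The genotype labels were checked in Plag1 itself. In CPM, a gene's counts per 1000000 counts of its library after TMM scaling, Plag1 had 8.17, 7.00, 7.90, 9.38 and 9.17 CPM in KO, 9.63, 10.6, 10.5, 8.12 and 11.8 CPM in HET and 12.0, 13.1, 12.0, 12.5 and 14.0 CPM in WT. Libraries are given throughout in the order KO-694, KO-695, KO-696, KO-738 and KO-739, then HET-692, HET-693, HET-715, HET-718 and HET-735, then WT-709, WT-719, WT-720, WT-723 and WT-726. Plag1 averaged 8.33 ± 0.973 CPM in KO, 10.2 ± 1.38 CPM in HET and 12.7 ± 0.87 CPM in WT (SD, n = 5 each). Its log2 fold change was -0.61 ± 0.10 (SE) in KO against WT (edgeR quasi-likelihood test, adjusted p = 0.00491), and every KO library lay under every WT library. Plag1 was not called in HET against WT, at -0.32 ± 0.10 (adjusted p = 0.981), or in KO against HET, at -0.29 ± 0.10 (adjusted p = 0.128), and HET-718 lay below 3 KO libraries. Library KO-738 was the lowest KO library in all 7 members called in KO against WT. Library KO-739 carried skeletal muscle RNA, with 4132 CPM summed over 7 skeletal muscle markers against at most 86.3 CPM in any other library. For the called members and for the list counts of KO against WT, values without either library are given beside the results. The principal cell markers of the epididymis summed to 60748 to 79704 CPM in KO, 71349 to 86255 in HET and 66172 to 77643 in WT, so the labelled tissue held its defining markers. The labels do not say what the animal numbers in the library names stand for. All 5 WT libraries carry numbers above 700, and KO-694, KO-695, KO-696, HET-692 and HET-693 carry numbers below it.

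Of the 34 members, 22 had enough counts to be tested, 9 of the testis and sperm type, all 11 of the somatic type and both of the epididymal type. The filter asked for about 0.353 CPM in at least 5 libraries. Adam30, a testis gene with the motif, passed it through the KO libraries, since 4 KO libraries, 1 HET library and no WT library exceeded that level. The 12 untested members were Adam6a, Adam6b, Adam20, Adam21, Adam24, Adam25, Adam26a, Adam26b, Adam29, Adam34, Adam34l and Adam39, all of the testis and sperm type, with 11 to 169 counts each over all 15 libraries. Several are near copies of each other, such as Adam25 and Adam39 at 96.1% identity over their coding bases, Adam6a and Adam6b at 94.9%, and Adam26a and Adam26b at 94.6%, so their split of the reads is uncertain.

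Levels per length differed widely between members, as the plot of levels shows. Adam7 averaged 3310 ± 150 CPM per kilobase of transcript in KO, 3430 ± 185 in HET and 3240 ± 206 in WT. Adam28, which codes for an active protease also found in human lymphocytes, averaged 718.4 ± 220.8 CPM per kilobase in KO, 733.9 ± 83.34 in HET and 707.8 ± 132.1 in WT. Adam7 was the gene with rank 3 of the whole table by mean WT CPM and took 1.12 to 1.24% of all counts in KO libraries, 1.12 to 1.25% in HET and 1.05 to 1.21% in WT. Adam28 stood at rank 32.

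Below these came the widely expressed proteases. Adam10, the main sheddase of Notch receptors and of the amyloid precursor protein, averaged 62.9 ± 3.24 CPM per kilobase in KO, 62.4 ± 3.77 in HET and 61.3 ± 4.61 in WT. Adam9 averaged 21.7 ± 0.959 CPM per kilobase in KO, 21.0 ± 0.808 in HET and 21.7 ± 1.23 in WT. Adam15 averaged 20.1 ± 3.8 CPM per kilobase in KO, 18.0 ± 2.0 in HET and 20.2 ± 3.43 in WT, so Adam9 and Adam15 did not differ beyond their spread. Adam17, the sheddase of tumour necrosis factor, followed at 11.7 ± 0.359 CPM per kilobase in KO, 11.6 ± 0.337 in HET and 11.4 ± 0.245 in WT. The other 7 somatic members averaged between 0.16 CPM per kilobase for Adam12 and 1.89 for Adam33 in WT.

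The testis and sperm members were low throughout. The most abundant in WT, Adam5, averaged 4.03 ± 2.21 CPM per kilobase in KO, 1.71 ± 0.469 in HET and 1.51 ± 0.345 in WT. Adam3 came next, at 3.31 ± 2.1 CPM per kilobase in KO, 1.47 ± 0.487 in HET and 1.03 ± 0.28 in WT. Adam1a stood at 0.983 ± 0.255 CPM per kilobase in KO, 0.895 ± 0.0326 in HET and 0.764 ± 0.102 in WT. Each of these 3 overlapped the next in its mean ± SD in WT. Adam6b had no count in any WT library.

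**Figure D1:**
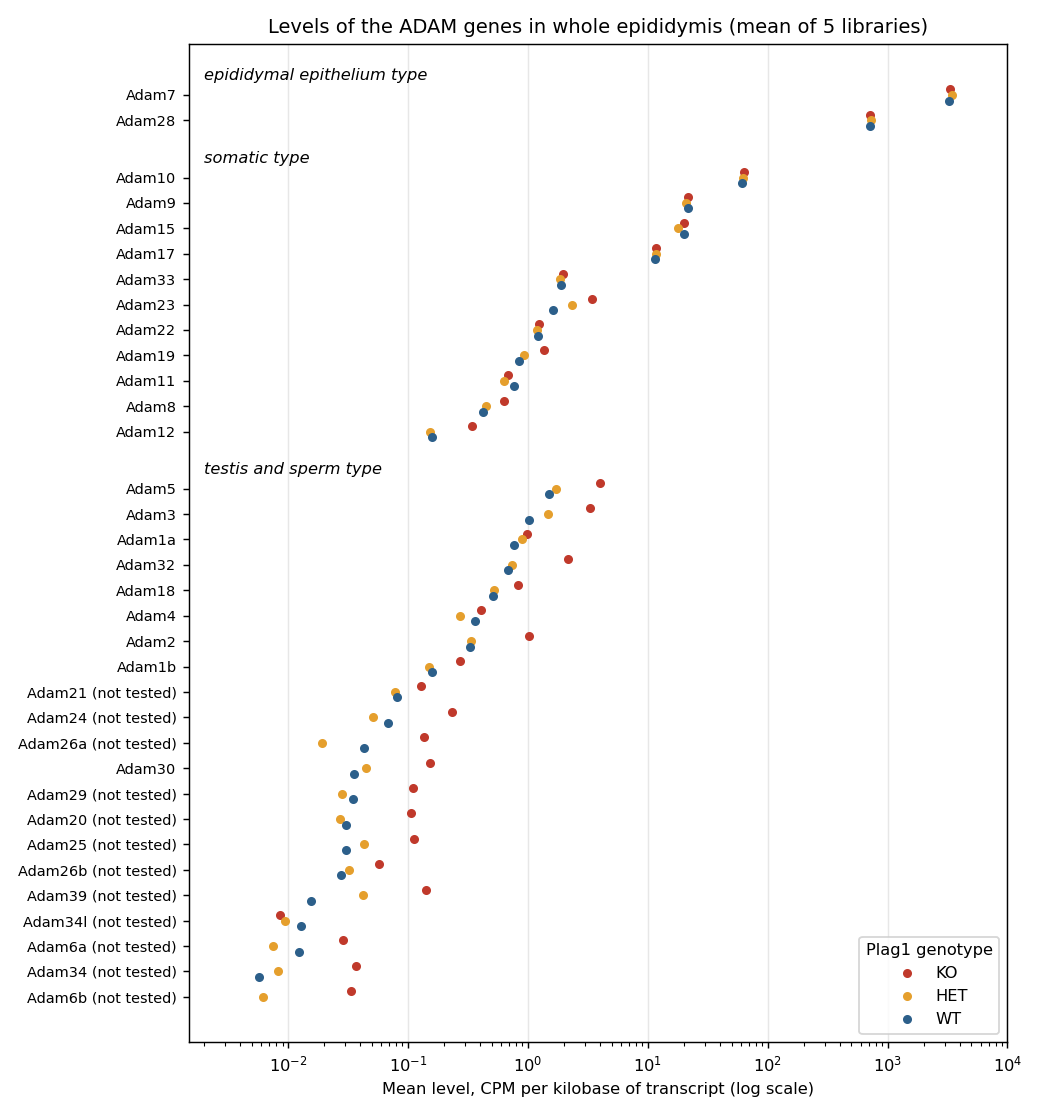
Mean level of each of the 34 ADAM genes in CPM per kilobase of transcript (log scale), with KO, HET and WT points from top to bottom within a gene and 5 libraries behind each point; Adam6b has no WT point because it had no count there. Adam7 and Adam28 lie far above all others, and the KO points lie to the right of the HET and WT points for most testis and sperm members.

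In KO against WT, 7 of the 22 tested members were higher and none was lower at an adjusted p under 0.05 (edgeR quasi-likelihood test, Benjamini-Hochberg over 19388 genes). Over all genes tested, 4.40% were higher and 1.60% were lower. The 7 were Adam12, Adam19 and Adam23 of the somatic type and Adam2, Adam3, Adam5 and Adam32 of the testis and sperm type. Of the 9 tested testis and sperm members the other 5 did not pass, nor did 8 of the 11 somatic members or either epididymal member. The median log2 fold change was 1.11 over 8 tested testis and sperm members, 0.04 over the 11 somatic members and -0.01 over all genes tested. Adam30 was left out of that median, a choice made after seeing the data, because it passed the filter through the KO libraries. The same 8 had a median of 0.78 without KO-696, 1.33 without KO-738 and 1.21 without KO-739. In bulk tissue, fewer cells of a type and less RNA per cell cannot be told apart, and the same holds for more cells and more RNA.

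Neither epididymal member was called. Adam7 had 11370, 10765, 11465, 11508 and 12224 CPM in KO, 11354, 12930, 11408, 11782 and 12068 CPM in HET and 11302, 12344, 10470, 11296 and 10768 CPM in WT. The groups overlapped, and the log2 fold change of KO against WT was 0.03 ± 0.07 (SE, adjusted p = 0.843).

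Adam28 varied more between libraries than between genotypes. It had 1725, 2395, 2832, 2888 and 1331 CPM in KO, 2551, 2309, 1877, 2450 and 2225 CPM in HET and 1998, 2821, 2177, 1712 and 2298 CPM in WT. KO held both the highest library, KO-738, and the lowest, KO-739. The log2 fold change was 0.02 ± 0.19 in KO against WT (SE, edgeR adjusted p = 0.963), and it was -0.08 ± 0.19 without KO-738 and 0.16 ± 0.15 without KO-739.

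Of the somatic members, Adam19 was the only one with every KO library above every WT library. Adam19 codes for meltrin beta, a protease of mesenchymal and cardiac development. It had 9.57, 7.95, 8.99, 6.90 and 10.2 CPM in KO, 7.33, 5.07, 5.68, 6.23 and 5.25 CPM in HET and 4.77, 6.07, 5.47, 5.05 and 5.67 CPM in WT. The KO libraries began above the highest WT library, and KO-738 was the lowest of them and overlapped HET-692. In log2 units the fold change was 0.69 ± 0.12 in KO against WT (SE, adjusted p = 0.00645) and 0.56 ± 0.12 in KO against HET (adjusted p = 0.0344). Among all genes tested, 2.84% had every KO library above every WT library, and 1 of the 22 members did. Transcripts of Gm16033 and Gm16034 overlap its exons on the other strand, and the strand setting of the counting is not given in the sources used here.

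Adam12 codes for meltrin alpha, a protease known from muscle precursor cells and mesenchyme. It had 2.60, 3.25, 2.80, 1.51 and 2.96 CPM in KO, 1.62, 0.833, 0.988, 1.49 and 0.990 CPM in HET and 0.769, 1.56, 1.25, 1.24 and 1.31 CPM in WT. In 4 KO libraries it lay above every HET and every WT library, and in KO-738 it lay within the WT range. The log2 fold change was 1.10 ± 0.24 in KO against WT (SE, adjusted p = 0.0165) and 1.14 ± 0.23 in KO against HET (adjusted p = 0.0267). Library KO-739, with the muscle RNA, was not the highest, and without it the KO against WT value was 1.06 ± 0.25 (adjusted p = 0.0311).

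Adam23 has no zinc motif and acts in neurons as a membrane receptor for the secreted protein LGI1. It had 26.0, 23.1, 25.3, 11.4 and 23.3 CPM in KO, 18.1, 20.9, 12.0, 12.5 and 11.7 CPM in HET and 8.69, 8.74, 16.1, 9.91 and 8.28 CPM in WT. In 4 KO libraries it exceeded every HET and WT library, while KO-738 lay within the WT range and WT-720 lay above the other WT libraries. As a log2 fold change the difference was 1.08 ± 0.25 in KO against WT (SE, adjusted p = 0.0244) and 0.53 ± 0.24 in KO against HET (adjusted p = 0.221). The HET mean lay between, at 0.54 ± 0.25 against WT, with an unadjusted p of 0.0437 and an adjusted p of 0.981 in edgeR. HET-692 and HET-693, numbered below 700, had 18.1 and 20.9 CPM, and the other HET libraries lay below WT-720. With the number range as a term in the edgeR fit, HET against WT stood at 0.26 ± 0.21 (adjusted p = 0.761). KO against WT then stood at 0.69 ± 0.22 (adjusted p = 0.142).

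The 3 most abundant somatic proteases overlapped between KO and WT and were not called. Adam10 had 284, 281, 313, 275 and 293 CPM in KO, 264, 301, 272, 301 and 295 CPM in HET and 265, 316, 267, 272 and 288 CPM in WT, with a log2 fold change of 0.04 ± 0.06 in KO against WT (SE, edgeR adjusted p = 0.735). Adam9 had 83.7, 83.6, 91.6, 87.9 and 91.2 CPM in KO, 84.3, 85.7, 79.9, 88.3 and 87.4 CPM in HET and 86.7, 93.1, 86.5, 80.7 and 92.0 CPM in WT. Adam9 differed by less than its spread, at -0.00 ± 0.05 in KO against WT (edgeR adjusted p = 0.983), and it lies beside Adam32 on the chromosome. Adam15, a protease of endothelium and epithelium, had 61.6, 75.1, 63.7, 54.7 and 44.6 CPM in KO, 63.5, 53.0, 47.9, 52.4 and 50.5 CPM in HET and 71.1, 55.4, 63.5, 66.0 and 45.0 CPM in WT.

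Adam15 overlapped between all groups, and its log2 fold change was -0.01 ± 0.14 in KO against WT (SE, edgeR adjusted p = 0.983). Adam17 and the neural receptor Adam22 both stood at 0.03 in KO against WT, with SE of 0.04 and 0.11. Adam33 stood at 0.06 ± 0.14 and Adam11, another LGI receptor, at -0.18 ± 0.24. Adam8, a protease of leukocytes, stood at 0.59 ± 0.26 (adjusted p = 0.182), with 3 KO libraries above the highest WT library and 3.64 CPM in KO-695 as its highest value. Exons of 4731419I09Rik overlap Adam15, those of Gm16201 overlap Adam8 and those of Iah1 overlap Adam17, each on the other strand.

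The 4 called testis and sperm members share a library pattern. Adam3 codes for cyritestin, the sperm surface protein without which mouse sperm do not enter the oviduct. It had 8.33, 8.93, 18.0, 1.88 and 8.22 CPM in KO, 6.30, 3.80, 3.60, 2.73 and 3.79 CPM in HET and 2.84, 2.26, 1.86, 3.62 and 3.51 CPM in WT. KO-696 was the highest library, KO-738 lay at the low end of WT, and the other 4 KO libraries lay above every HET and WT library. Exons of Gm45528 overlap Adam3 on the other strand. The log2 fold change was 1.69 ± 0.42 in KO against WT (SE, adjusted p = 0.0320) and 1.17 ± 0.41 in KO against HET (adjusted p = 0.124).

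Adam5, a testis member whose protein is found on mouse sperm, had 10.4, 10.2, 19.0, 3.26 and 8.76 CPM in KO, 6.51, 4.20, 3.67, 3.79 and 3.79 CPM in HET and 3.81, 3.56, 2.82, 3.84 and 5.26 CPM in WT. The same 4 KO libraries lay above all others, and KO-738 fell inside the WT range. On the log2 scale the fold change was 1.42 ± 0.34 in KO against WT (SE, adjusted p = 0.0281) and 1.23 ± 0.33 in KO against HET (adjusted p = 0.0669).

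Adam32, a testis member of less known function, had 4.46, 6.18, 10.4, 1.16 and 4.45 CPM in KO, 3.59, 1.30, 1.55, 1.24 and 1.38 CPM in HET and 1.92, 1.76, 1.11, 1.72 and 1.84 CPM in WT. Again KO-738 lay within the WT range and the other KO libraries above every HET and WT library. The log2 fold change was 1.69 ± 0.44 in KO against WT (SE, adjusted p = 0.0388) and 1.55 ± 0.44 in KO against HET (adjusted p = 0.0749).

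Adam2 codes for fertilin beta, the partner of the fertilin alpha protein on the sperm head. It had 2.63, 2.77, 5.08, 0.564 and 2.09 CPM in KO, 1.53, 1.16, 0.423, 0.583 and 0.603 CPM in HET and 0.730, 0.853, 0.608, 1.06 and 0.938 CPM in WT. KO-738 lay below the lowest WT library here, and the other 4 KO libraries lay above every HET and WT library. In log2 units the fold change was 1.66 ± 0.45 in KO against WT (SE, adjusted p = 0.0437) and 1.60 ± 0.44 in KO against HET (adjusted p = 0.0722).

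**Figure D2:**
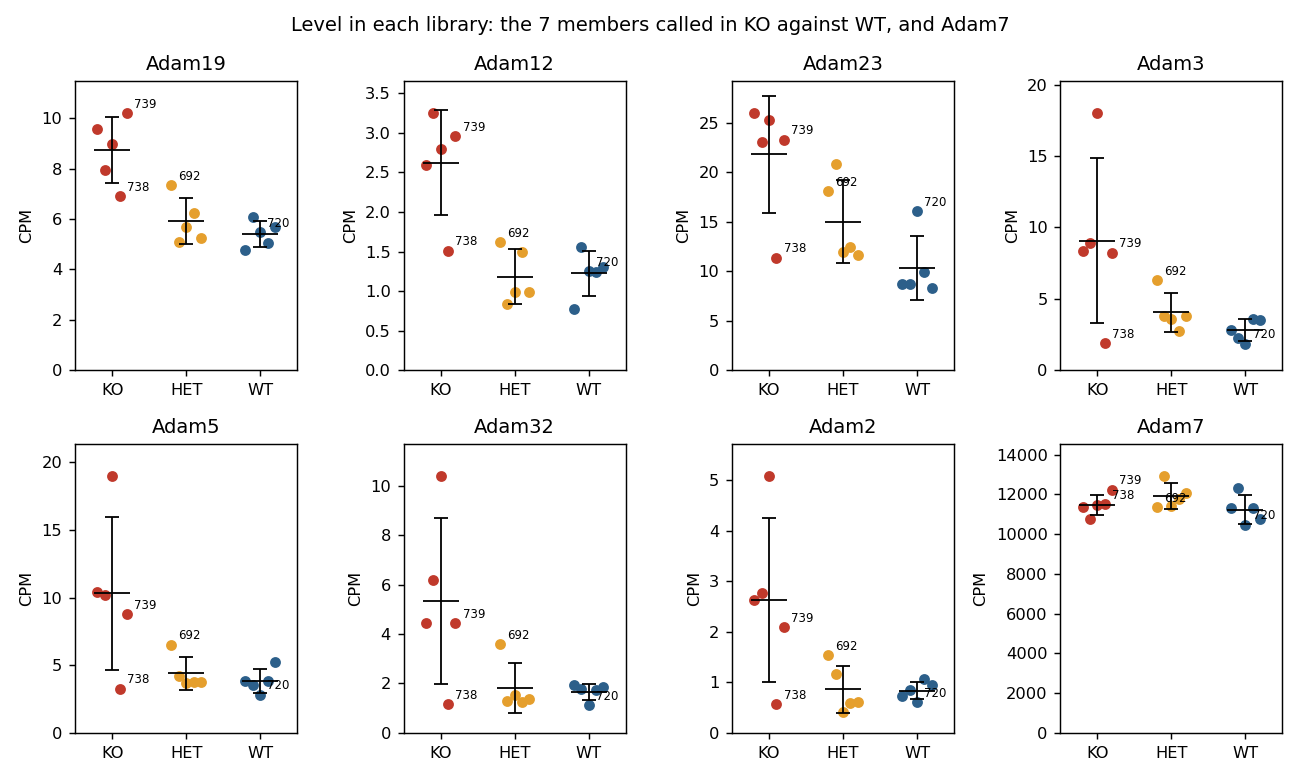
CPM in each library for the 7 ADAM genes called in KO against WT and for Adam7; points are libraries, with KO left, HET in the middle and WT right, bars are the mean ± SD of 5 libraries, and the animal numbers of 4 libraries are written beside their points. KO-738 is the lowest KO library in all 7 called genes, and the Adam7 groups overlap.

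The remaining tested sperm members did not pass. Adam1a codes for an alpha subunit of fertilin that in mouse testis is needed for ADAM3 to reach the sperm surface. It had 3.91, 3.13, 4.67, 2.32 and 3.14 CPM in KO, 3.03, 3.11, 3.21, 3.28 and 3.01 CPM in HET and 2.61, 2.21, 2.79, 2.56 and 3.18 CPM in WT, with only KO-694 and KO-696 above the highest WT library. The log2 fold change was 0.36 ± 0.16 in KO against WT (SE, edgeR adjusted p = 0.174). Exons of Mapkapk5, Gm42878 and Tmem116 overlap Adam1a, and its coding bases are 84.0% identical to those of Adam1b.

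Adam18, the many-exon member at the edge of the chromosome 8 group, stood at 0.68 ± 0.28 in KO against WT (SE, edgeR adjusted p = 0.152), with 4 KO libraries above the highest WT library. Adam30 stood at 2.09 ± 0.64 (adjusted p = 0.0651), Adam1b at 0.79 ± 0.50 and Adam4, a sperm surface member, at 0.16 ± 0.21. The 12 untested members summed to 4.03, 3.27, 6.12, 0.533 and 1.26 CPM in KO, 1.24, 0.724, 0.741, 1.09 and 0.947 CPM in HET and 1.19, 0.602, 0.715, 1.06 and 1.31 CPM in WT. KO-694, KO-695 and KO-696 exceeded every WT library in that sum, and KO-738 was the lowest of all 15.

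**Figure D3:**
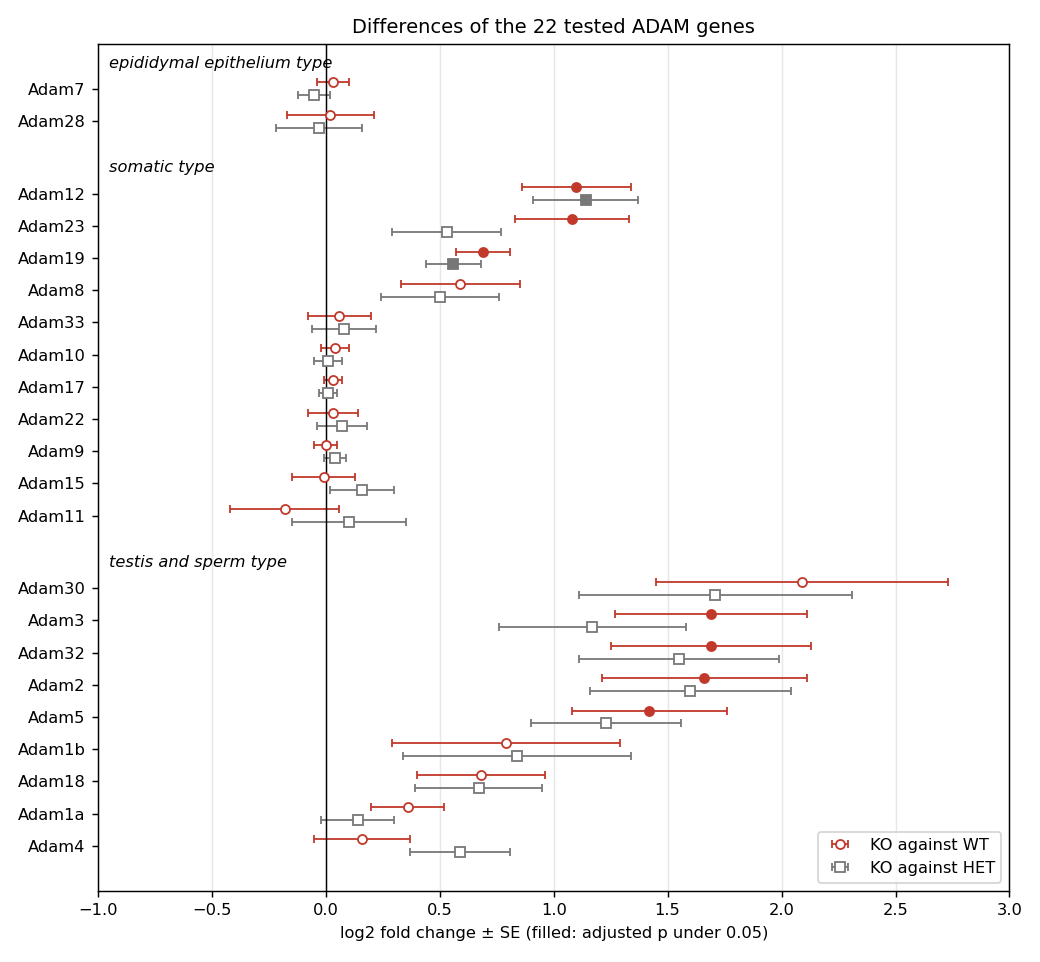
Log2 fold change ± SE of the 22 tested ADAM genes in KO against WT (circles) and KO against HET (squares), grouped by type and ordered by the KO against WT value; filled marks have an adjusted p under 0.05. Filled circles appear at 3 somatic and 4 testis and sperm members, and filled squares only at Adam12 and Adam19.

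Leaving out libraries moved these calls. Calls over all genes moved with them, and edgeR called 1163 genes in KO against WT with all libraries. Without KO-738 it called 2923 genes, 9.75% of those tested as higher, and 10 members, adding Adam1a, Adam18 and Adam30, of which Adam30 had passed the filter through the KO libraries. Adam3 then stood at 1.95 ± 0.29 (SE, adjusted p = 0.000641), Adam5 at 1.66 ± 0.24 (adjusted p = 0.000563), Adam32 at 1.95 ± 0.34 (adjusted p = 0.0016) and Adam2 at 1.92 ± 0.34 (adjusted p = 0.00182). Of the somatic members, Adam19 stood at 0.77 ± 0.12 (adjusted p = 0.000671), Adam12 at 1.25 ± 0.21 (adjusted p = 0.00108) and Adam23 at 1.24 ± 0.21 (adjusted p = 0.0015). Each of the 7 had a larger log2 fold change without KO-738 than with it, which follows from KO-738 being their lowest KO library.

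Without KO-739, edgeR called 847 genes and 5 members, the 7 less Adam2 and Adam32, which stood at adjusted p of 0.0546 and 0.0539. Adam19 then stood at 0.63 ± 0.12 (SE, edgeR adjusted p = 0.0149), Adam23 at 1.05 ± 0.27 (adjusted p = 0.0443), Adam3 at 1.73 ± 0.46 (adjusted p = 0.0499) and Adam5 at 1.48 ± 0.36 (adjusted p = 0.0401). Without KO-696, the library with the highest sperm members, it called 318 genes and without KO-695 it called 565, and of the members Adam12 and Adam19 only. Adam3 without KO-696 stood at 1.27 ± 0.37 (adjusted p = 0.0892). Leaving out WT-709, WT-719 or WT-723 also left those 2 members, with 435, 535 and 444 genes called. Adam23 was called beside them without WT-720, with 601 genes in all, and Adam5 without WT-726, with 636. Without KO-694 or HET-735 it called 5 members, with 677 and 895 genes called.

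The animal number range moved them further. With the range as a term in the fit, Adam19 alone passed, at 0.64 ± 0.14 in KO against WT (SE, edgeR adjusted p = 0.0484), Adam12 stood at 0.95 ± 0.27 (adjusted p = 0.104) and Adam3 at 1.03 ± 0.43 (adjusted p = 0.237). Among animals numbered 700 and above, which leaves 2 KO libraries, no member and no gene was called, and Adam19 stood at 0.67 and Adam3 at 0.85. The median over the 8 tested testis and sperm members other than Adam30 was 0.53 with the term and 0.49 in the restricted set. Over all genes the term left 176 called in KO against WT. In KO against HET the term called 361 genes and 3 members, Adam2 at 1.35 ± 0.30 (adjusted p = 0.0417), Adam12 at 1.08 ± 0.24 (adjusted p = 0.0393) and Adam19 at 0.54 ± 0.13 (adjusted p = 0.0443).

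In HET against WT, none of the 22 members was called, nor was any of all genes tested (0%, edgeR), and DESeq2 called no member and 1 gene. At an unadjusted p under 0.05 there was 1 member, Adam23, and 4.40% of all genes. The median log2 fold change was 0.10 over the 8 testis and sperm members other than Adam30, -0.02 over the somatic members and 0.01 over all genes tested. Library HET-692 was the highest HET library in Adam2, Adam3, Adam5, Adam12, Adam19 and Adam32.

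In KO against HET, Adam12 and Adam19 were called higher and no member was lower, against 1.61% of all genes higher and 0.351% lower. No member had every KO library above every HET library, which 2.18% of all genes did. The median was 1.0 over the 8 testis and sperm members other than Adam30, 0.10 over the somatic members and -0.01 over all genes. DESeq2 called 6 members here, the 2 plus Adam2, Adam3, Adam5 and Adam32, beside 1242 genes in all, with 4.52% of all genes higher. In edgeR, which called 381 genes in all, leaving out KO-738 gave 10 members and 2443 genes, and Adam23 then stood at 0.71 ± 0.21 (adjusted p = 0.0394). Those 10 included Adam30, which had passed the filter through the KO libraries. Leaving out HET-692 gave 5 members and 757 genes, leaving out KO-694 Adam12 alone and 227 genes, and leaving out KO-695 Adam19 alone and 154 genes. No member was called in edgeR without KO-739, with 172 genes called, or without KO-696, HET-693, HET-715, HET-718 or HET-735, with 0 to 31 genes called. Comparisons against HET and against WT share the KO libraries.

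Haploid germ cell markers and many-exon sperm members were both high in the 3 KO libraries numbered below 700. In KO-739, numbered above 700, these sperm members were high as well, while the haploid sum lay within the WT range. The 5 many-exon members summed to 27.7, 30.0, 55.5, 7.56 and 25.8 CPM in KO, 19.1, 12.1, 10.4, 9.36 and 10.7 CPM in HET and 10.8, 9.29, 7.58, 11.4 and 12.8 CPM in WT. The 15 haploid germ cell markers, such as the protamine and transition protein genes, summed to 274, 272, 389, 126 and 169 CPM in KO, 247, 180, 171, 166 and 162 CPM in HET and 149, 146, 120, 203 and 170 CPM in WT. Both sums were highest in KO-696, and KO-738 was low in both.

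Of these 15 markers, all tested and none at 0, Akap3 and Ldhc were called higher in KO against WT and none was lower. Akap3, a scaffold of the sperm tail, stood at 1.89 ± 0.46 (SE, edgeR adjusted p = 0.0301), and Ldhc, the germ cell lactate dehydrogenase, at 1.70 ± 0.42 (adjusted p = 0.0331). In fits chosen after seeing the data, 8 of the 15 were higher without KO-738 and 2 without KO-739, and Ldhc without KO-739 stood at 1.73 ± 0.46 (adjusted p = 0.0505). The share of all genes called higher was 4.40% with all libraries, 9.75% without KO-738 and 3.35% without KO-739. Of 7 spermatocyte and spermatogonia markers, 6 were tested and Ddx4 and Mael were higher. Their summed level was 18.8, 17.8, 31.7, 7.24 and 13.6 CPM in KO, 8.30 to 12.6 in HET and 7.65 to 10.6 in WT. In the KO libraries other than KO-738 that sum lay above every HET and WT library. The part of germ cell RNA in the difference of the sperm members was not tested.

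The ratio of the 2 sums was not the same in all libraries. The haploid sum rests most on Odf2, at means of 78.4 of 246 CPM in KO, 66.7 of 185 CPM in HET and 59.9 of 158 CPM in WT. Odf2 stood at 0.39 ± 0.14 in KO against WT (SE, edgeR adjusted p = 0.106). The ratio thus weighs abundant markers most and is not a level per germ cell. Per 100 CPM of haploid markers, the 5 many-exon members had 10.1, 11.0, 14.3, 6.01 and 15.3 CPM in KO, 7.72, 6.72, 6.10, 5.64 and 6.58 CPM in HET and 7.28, 6.37, 6.32, 5.64 and 7.52 CPM in WT. In 4 KO libraries the ratio lay above every HET and WT library, and in KO-738 it lay within the WT range. KO-739 had the highest ratio, with a haploid sum inside the WT range and Prm2, a protamine gene, at 11.7 CPM against 11.2 to 29.8 CPM in WT. Ldhc in that library was at 20.6 CPM, above the WT maximum of 9.38 CPM. The spermatocyte and spermatogonia sum of KO-739 was 13.6 CPM, above the WT maximum of 10.6 CPM.

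The 16 members with 1 to 4 exons, which included 4 tested ones, summed to 10.2, 8.76, 15.1, 4.01 and 6.66 CPM in KO, 6.09, 5.76, 5.01, 5.21 and 5.04 CPM in HET and 5.11, 4.32, 4.86, 5.56 and 6.24 CPM in WT. Per 100 CPM of the many-exon members they ran from 25.8 to 53.1 CPM in KO, 31.9 to 55.6 in HET and 46.5 to 64.2 in WT. The KO libraries other than KO-738 lay below the lowest WT library in this ratio. Of the few-exon sum, Adam1a averaged 3.43 of 8.94 CPM in KO, 3.13 of 5.42 in HET and 2.67 of 5.22 in WT. The 12 untested members in it averaged 3.04 ± 2.24 CPM in KO, 0.948 ± 0.222 in HET and 0.975 ± 0.304 in WT (SD). The many-exon sum averaged 29.3 ± 17.1 CPM in KO and 10.4 ± 2.02 in WT. The ratio thus weighs Adam1a most and does not describe the few-exon members as a kind.

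**Figure D4:**
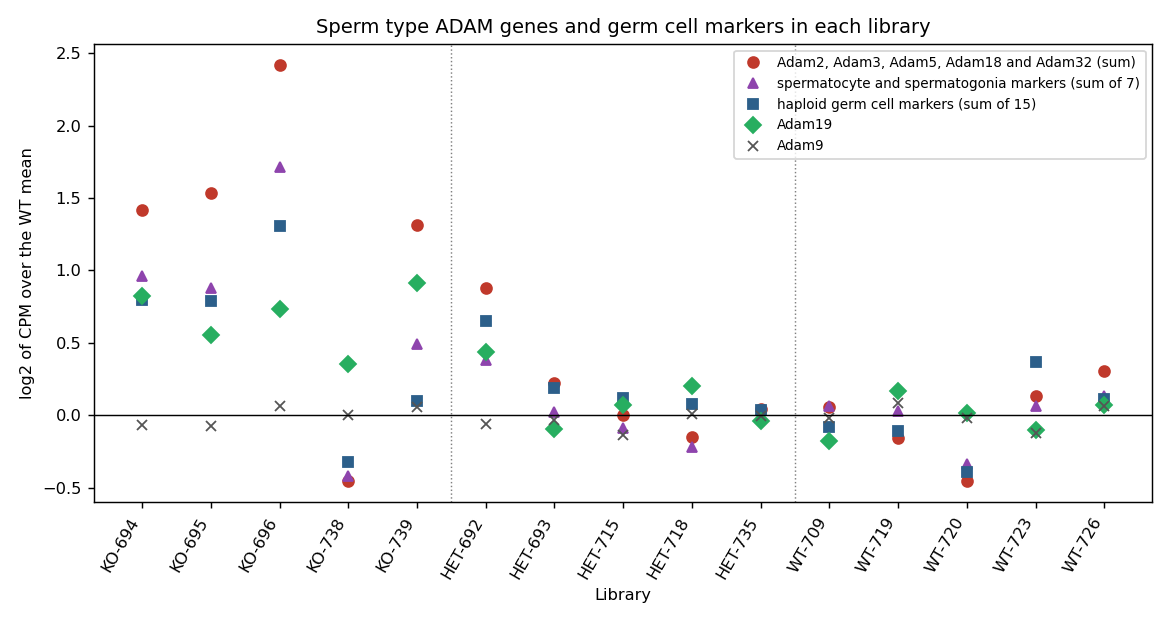
Log2 of CPM over the WT mean in each of the 15 libraries, KO left, HET in the middle and WT right, for the sum of the 5 many-exon sperm members, the sums of the spermatocyte and haploid markers, Adam19 and Adam9. KO-694, KO-695, KO-696 and KO-739 lie above WT in the many-exon sum, KO-738 does not, and Adam9 stays near the line in all 15 libraries.

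Stromal and vascular markers moved with the called somatic members. Of 6 fibroblast markers 5 were higher in KO against WT, and their sum was 1799, 2000, 2447, 1273 and 2355 CPM in KO, 1457, 1291, 1303, 1263 and 1215 CPM in HET and 1106, 1251, 1399, 1162 and 1064 CPM in WT. All 5 endothelial markers were higher, with sums of 107 to 164 CPM in KO, 68.8 to 101 in HET and 61.0 to 83.3 in WT. Of 8 macrophage markers 5 were higher, with sums of 101 to 180 CPM in KO, 99.3 to 115 in HET and 83.0 to 103 in WT. KO-738 had the lowest KO sum in all 3 lists. Without KO-738, 5 fibroblast, 5 endothelial and 8 macrophage markers were higher, and without KO-739 the counts were 3, 4 and 5, in fits chosen after seeing the data. Beside them, 4.40% of all genes were higher with all libraries, 9.75% without KO-738 and 3.35% without KO-739. The higher fibroblast markers were Col1a1, Col1a2, Col3a1, Dcn and Lum, and the higher macrophage markers Csf1r, Cx3cr1, Adgre1, Lyz2 and C1qb. No marker of these 3 lists was at 0 in every library, and their part in the differences of Adam12, Adam19 and Adam23 was not tested.

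In the other 6 marker lists 1 of 37 tested markers was higher in KO against WT, 2.7%, beside 4.40% of all genes. Without KO-738 there were 5 higher, 13.5% beside 9.75% of all genes, and 3 lower. Without KO-739 there were 3 higher, 8.11% beside 3.35% of all genes, and both fits were chosen after seeing the data. Of 6 fat cell markers Lpl alone was higher, and their sum was 19.5 to 144 CPM in KO, 10.5 to 32.4 in HET and 9.76 to 28.3 in WT, with KO-695 the highest. None of the 12 principal cell, 5 smooth muscle or 6 nerve and Schwann cell markers was called in KO against WT, nor was any of the 5 tested skeletal muscle markers or the 3 tested Leydig and Sertoli cell markers. The Leydig and Sertoli cell sum was 79.0 to 105 CPM in KO, 94.4 to 117 in HET and 97.6 to 116 in WT. The nerve and Schwann cell sum, of interest because Adam22 and Adam23 are neural receptors, was 103 to 118 CPM in KO, 113 to 117 in HET and 111 to 124 in WT.

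Genes that act with the sperm ADAM proteins rose in part. Of 12 mouse genes needed for ADAM3 to mature or stay on sperm, acting in germ cells or, for Rnase10, in the epididymis, 8 were tested and 3 were higher in KO against WT, with none lower. In fits chosen after seeing the data, 5 of 10 tested were higher without KO-738 and 3 of 9 without KO-739. Pdilt and Pmis2 entered without KO-738, and Pdilt without KO-739, and each was among the higher genes there. Their WT libraries reached at most 0.25 CPM in Pdilt and 0.219 CPM in Pmis2, so they passed the filter through KO or HET libraries. Among all genes tested, 4.40% were higher with all libraries, 9.75% without KO-738 and 3.35% without KO-739. Cmtm2b, a membrane protein gene whose loss with Cmtm2a removes ADAM3 from mouse sperm, had 2.29, 4.31, 5.36, 0.470 and 2.27 CPM in KO, 1.65, 1.01, 0.988, 0.510 and 0.732 CPM in HET and 0.500, 0.853, 0.465, 0.878 and 1.02 CPM in WT. KO-738 again lay in the WT range, and the log2 fold change was 2.00 ± 0.49 (SE, edgeR adjusted p = 0.0316).

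Clgn, a germ cell chaperone of the endoplasmic reticulum, had 5.04, 5.99, 10.7, 2.32 and 6.25 CPM in KO, 4.47, 2.93, 2.72, 2.37 and 2.02 CPM in HET and 2.11, 2.86, 1.93, 2.67 and 2.77 CPM in WT. It had the same 4 KO libraries on top, and its log2 fold change was 1.30 ± 0.31 in KO against WT (SE, edgeR adjusted p = 0.0287). The third of the 3, chosen for naming after its values were seen, was Cmtm2a at 1.63 ± 0.42 (adjusted p = 0.0348), which without KO-739 stood at 1.68 ± 0.45 (adjusted p = 0.0508). Rnase10, an epididymal gene whose loss in mice removes ADAM3 from sperm during transit, stood at -0.13 ± 0.19 and Ace, which also acts in somatic tissue, at 0.06 ± 0.09, and neither passed. Calr3 stood at -0.05 ± 0.13, Tpst2 at -0.12 ± 0.22 and Ly6k at -0.32 ± 0.25, and none of them passed. All these uncalled genes were named after their values were seen. Pdilt, Tex101, Pmis2 and Prss37 had too few counts to be tested in the fit of all 15 libraries.

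Of 43 tested partner genes of the somatic proteases in 7 lists, 7 were higher in KO against WT, 16.3%, beside 4.40% of all genes, and the lists were chosen with earlier results known. Without KO-738 there were 10, 23.3% beside 9.75% of all genes. Without KO-739 there were 6, 14% beside 3.35% of all genes, and both fits were chosen after seeing the data. None of the 3 iRhom and ADAM17 partner genes, the 5 tested tetraspanins that bind ADAM10, the 4 proprotein convertases that cleave the prodomain or the 4 LGI ligands was called in KO against WT. Of 4 TIMP inhibitors Timp2 was higher, at 0.75 ± 0.11 (SE, edgeR adjusted p = 0.00343), with 169, 173, 190, 121 and 212 CPM in KO, 136, 114, 126, 111 and 110 CPM in HET and 102, 97.3, 110, 105 and 98.0 CPM in WT. Every KO library of Timp2 lay above every WT library. Of the iRhom, tetraspanin, convertase, LGI and TIMP genes, Timp1, Timp2 and Pcsk6 were higher without KO-738 and Timp2 alone without KO-739.

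Of 20 sheddase substrates 15 were tested and 3 were higher, with none lower. Axl, a receptor tyrosine kinase shed by ADAM10 and ADAM17, stood at 0.34 ± 0.07 (SE, edgeR adjusted p = 0.0124), and Tnfrsf1a, a tumour necrosis factor receptor shed by ADAM17, at 0.28 ± 0.08 (adjusted p = 0.0371). The third, named after its values were seen, was Tnfrsf1b at 0.25 (adjusted p = 0.0433). Without KO-738, 2 of the 15 were higher, and without KO-739, 3 of the 15. Of 8 integrin partners of the disintegrin domain 3 were higher and none lower. Itga9, the alpha chain that binds several ADAM disintegrin domains, stood at 0.41 ± 0.07 (adjusted p = 0.00639) and Itgb3, a beta chain, at 0.51 ± 0.13 (adjusted p = 0.0301), or 0.48 ± 0.13 without KO-739 (adjusted p = 0.053). The third, likewise named after its values were seen, was Itgb5 at 0.32 (adjusted p = 0.0484). Without KO-738, 5 of the 8 were higher, and without KO-739, 2 of the 8. Among all genes, 4.40% were higher with all libraries, 9.75% without KO-738 and 3.35% without KO-739. No gene of these partner lists was called in HET against WT, and in all of them none was lower in KO against WT.

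Promoter windows, which the choice of members did not use, were described by their letters without a test. Windows of 250 bases before to 50 after the start were found for 18 members in the RefSeq table (GRCm38.p6), 9 windows for 7 somatic members and 11 for 11 testis and sperm members. Members without a window included the called members Adam2, Adam3, Adam5, Adam12 and Adam32. Adam7, Adam9, Adam11, Adam18, Adam28 and Adam33 were also among those without one. Median GC content was 39.3% in the testis and sperm windows, 65.3% in the somatic windows and 52.7% in all 32851 windows of the table. The median number of CG pairs was 1 in the testis and sperm windows, 19 in the somatic windows and 7 in all. The TATA box letters TATAAA, searched on both strands, occurred in 4 of 11 testis and sperm windows, in none of 9 somatic windows and in 13.6% of all.

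The letters GGGGC, then 6 to 8 bases, then GGG, a form of the pattern known for PLAG1, were also searched on both strands. They occurred in none of the 11 testis and sperm windows, in 3 of 9 somatic windows, those of Adam10 and Adam15 and 1 of the 3 of Adam19, and in 15.9% of all windows. The window of Adam23 did not hold them, Adam12 had no window to search, and Adam10 and Adam15 were not called in any comparison. The letters GGGCGG occurred in none of the testis and sperm windows, 5 of 9 somatic windows and 35.7% of all, and can overlap the PLAG1 pattern.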

How the data were processed

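Gene counts were made by the authors with HISAT2 2.0.5 and featureCounts of Subread 1.4.6p5 on GRCm38.p6, per the submitters' processing notes, and were used as deposited. The strand setting of the counting is not given in the sources used here. Of 41591 rows, named by NCBI gene ID, 96.9% matched a symbol in the RefSeq table and 1214 had no name. Libraries were grouped by genotype as the titles give it, and each is 1 animal as far as the titles show, since each carries its own animal number.

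TMM scaling, filterByExpr on genotype and a robust quasi-likelihood fit of 3 genotype means over all 15 libraries were done in edgeR 4.0.16 (R 4.3.3). P-values were adjusted by Benjamini-Hochberg over the 19388 genes tested, and "called" means an adjusted p under 0.05. The SE of a log2 fold change was derived from its F value. Levels per length are TMM CPM over the length of the longest coding transcript in GENCODE M21. Alternatives were DESeq2 1.42.0, limma 3.58.1 voom with quality weights, other scaling and filters, fewer groups, the animal number range and leaving out each library.

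Full values were given for called members, both epididymal members and the 3 most abundant somatic and the 3 most abundant testis and sperm members, and up to 2 called genes each way per partner list. Members, types and lists were chosen with earlier results of these data known. Lists were described by counts and medians only.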

Additional observations from a re-analysis of the deposited data

Results flagged for a closer look

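Of 39 groups of 5 libraries screened, 13 named members in 3 genotypes, 5 held a library far from the other 4 of its group by Dixon's test, which chance flags in about 1 of 20 groups. For Adam23, KO-738 had 11.4 CPM, while the remaining KO libraries ran from 23.1 to 26.0 CPM. Also for Adam23, WT-720 had 16.1 CPM, above the span of 8.28 to 9.91 CPM of the remaining WT libraries. For Adam32, HET-692 had 3.59 CPM where the remaining HET libraries spanned 1.24 to 1.55 CPM, and WT-720 had 1.11 CPM where the remaining WT libraries spanned 1.72 to 1.92 CPM. For Adam5, HET-692 had 6.51 CPM where the remaining HET libraries spanned 3.67 to 4.20 CPM. HET-692 also had the highest haploid germ cell marker sum of the HET libraries, 247 CPM, and WT-720 the lowest of the WT libraries, 120 CPM.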

How the results depend on the processing

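Members called higher in KO against WT numbered 7. They numbered 3 with no filter on low counts (Adam12, Adam19 and the near-copy gene Adam39), 2 with only the 2 genotypes in the fit, 1 with the number range as a term, 0 among animals numbered 700 and above, and 2 to 10 when a library was left out. They stayed within 1.5 times of 7 under DESeq2 size factors, the filter at 1 CPM, DESeq2 and voom. Adam30, which passed the filter through the KO libraries, was among those called in DESeq2 and without KO-738. All genes called numbered 1163, and 1930 in DESeq2, 287 with 2 genotypes, 176 with the term, 0 in the restricted set and 318 to 2923 when a library was left out. In HET against WT no member was called under any of the 23 alternatives, and DESeq2 called 1 gene where edgeR called 0. In KO against HET, 2 members became 6 in DESeq2, 6 in voom, 0 with 2 genotypes, 0 in the restricted set and 0 to 10 when a library was left out. There Adam30 was among those called in voom and without KO-738. The 381 genes called there became 1242 in DESeq2, 1909 in voom, 0 with 2 genotypes, 0 in the restricted set and 0 to 2443 when a library was left out. Fewer samples enter the 2-genotype, restricted and left-out fits. For the other settings the cause was not tested. No member was called lower, and no called member changed sign, under any of the 23 alternatives. Adam12 and Adam19 were called in KO against WT in all 15 fits that left out a library, Adam23 and Adam5 in 9, Adam3 in 8, Adam32 in 5 and Adam2 in 3. The median over the testis and sperm members tested, with Adam30 only in the settings where it was tested, ran from 0.49 to 1.66. The 0.49 was among animals numbered 700 and above, where Adam30 was not tested. Members under about 1 CPM rest on few counts. No paired analysis was possible because the genotypes share no replicate numbers, and no label gives a meaning to those of the animals.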
